A study of Mus musculus with 6 samples.

Results

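The 9 genes described here are markers of endoderm and of the yolk sac: the transcription factors Sox17, Sox7, Gata4, Gata6 and Hnf4a, the secreted inhibitor Cer1, and the serum proteins Afp, Ttr and Apoa1. They were chosen by name, and every probe set that the platform annotation pairs with 1 of these symbols alone was taken, which gave 28 of the 34945 probe sets with a single symbol, for 9 of 18193 genes. RNA came from neuralized embryoid bodies, aggregates of 1 mouse embryonic stem cell line that carried a Gli1-FLAG transgene under the constitutive Rosa26 promoter, and was read on 1 Affymetrix array per culture. All 6 cultures spent 2 days in suspension and then 3 days in 500 nM all-trans retinoic acid. The 3 RA cultures received nothing further, and the 3 Ag1.3 cultures also received 50 nM Ag1.3, which activates Smoothened and so switches on hedgehog signalling. Cultures with the same number were grown in parallel, which makes 3 pairs, and the transgene was present in both groups.

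Endoderm is the germ layer that lines the gut and forms liver and pancreas, and a related extraembryonic endoderm covers the early embryo and lines the yolk sac. Gata6, Gata4 and Sox17 act early in its formation, and Hnf4a later drives genes for secreted serum proteins in yolk sac and liver, among them Afp, Ttr and Apoa1. Embryoid bodies often form an outer layer of such cells, which conditions for neural differentiation disfavour. Several of these factors also have roles in other cells: Sox17 and Sox7 in endothelium, Gata4 and Gata6 in heart, and Ttr in the choroid plexus.

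Of the 9 genes 1 changed with Ag1.3. Sox17 fell 2.32-fold on the log2(intensity + 16) scale, and the other 8 had log2 fold changes between -0.22 and 0.16 with adjusted p between 0.498 and 0.957. Over all genes, limma's test at an adjusted p under 0.05 called 0.313% lower (57 genes) and 1.07% higher (195 genes) with Ag1.3, or 1.39% either way. An unadjusted p under 0.05 was reached by 1 member, Sox17, against 14.9% of all genes, and by 3 of the 28 probe sets, against 13.6% of all probe sets. The median log2 fold change was -0.03 over the 9 genes and -0.01 over all genes. Of the genes called, 77.4% were higher, against 17.0% when arrays were scaled to the hybridization spikes, a scaling that moved the median of all genes to -0.16 and the value of Sox17 to -1.37. In bulk samples, fewer cells of a type and less RNA per cell cannot be told apart.

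**Figure D1:**
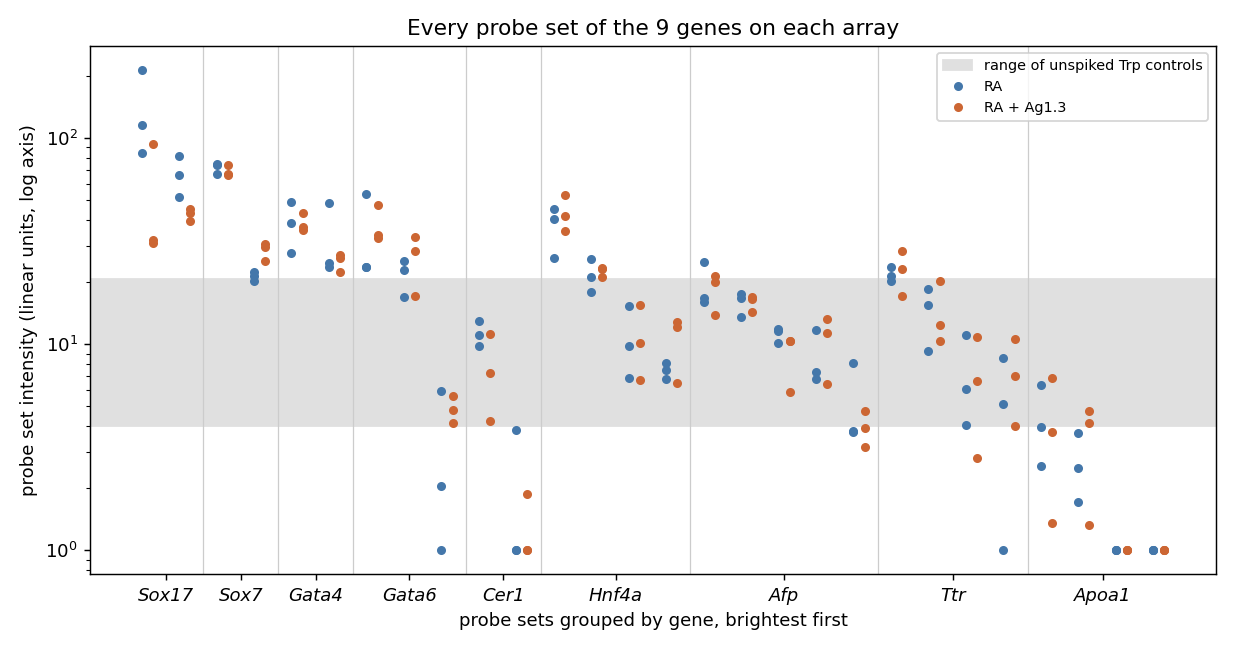
Intensity of each of the 28 probe sets on the 3 RA and 3 Ag1.3 arrays (log axis, 1 point per array), with the range of the unspiked Trp control probe sets shaded. Both Sox17 probe sets lie above the shaded range on all 6 arrays, while nearly all points of Afp, Ttr and Apoa1 lie in or below it.

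Signals were set against 3 control probe sets for bacterial Trp genes, which mouse RNA does not carry. Their 18 intensities ran from 4.02 to 20.71. Of the 28 probe sets, 11 had a mean over the 6 arrays above that range and 17 did not. Taking the probe set with the highest mean log2 value for each gene, Sox17, Sox7, Gata4, Gata6, Hnf4a and Ttr were above it and Cer1, Afp and Apoa1 were not, so 3 of 9 genes were in the range of the controls, a state shared by 19.9% of all genes.

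The serum proteins and Cer1 were the members closest to the controls. The 3 serum proteins had 13 probe sets and 78 intensities, of which 72 were no higher than 20.71. Afp, the fetal serum protein of yolk sac and liver, ran from 3.18 to 24.97 over its 5 probe sets. In its highest the RA cultures read 16.75, 24.97 and 16.02 (replicates 1, 2 and 3, the order used throughout) and the Ag1.3 cultures 13.9, 21.4 and 19.95, so the groups overlapped.

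Ttr carries thyroid hormone and, bound to retinol-binding protein, retinol. Its 4 probe sets ran from 1 to 28.18, and the highest of them read 20.3, 21.5 and 23.55 in RA and 17.0, 23.1 and 28.2 with Ag1.3, at the edge of the control range in both groups. Apoa1, the main protein of high-density lipoprotein, never exceeded 6.84. On 2 of its 4 probe sets all 6 intensities were exactly 1, and these carry no order. Its highest probe set read 2.56, 6.33 and 3.96 in RA and 1.35, 3.74 and 6.84 with Ag1.3.

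The log2 fold changes of the chosen probe sets were -0.03 for Afp (95% interval -0.27 to 0.20), 0.03 for Ttr (-0.19 to 0.25) and -0.03 for Apoa1 (-0.28 to 0.22). The sign of Ttr turned to -0.08 when arrays were scaled to the spikes. Over all 13 probe sets the values ran from -0.13 to 0.16, and 0 passed in limma, nor did any reach an unadjusted p under 0.05 (0 probe sets; the smallest was 0.171). At such intensities the added constant of 16 is a large part of the value, and for Apoa1 most of it. These intervals therefore say little about a fold change of the transcripts.

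The promoters of Afp and Apoa1 are shown because they are textbook targets of the Hnf factors and both transcripts were near background here. RefSeq windows of GRCm38.p6, from 250 bases before to 50 bases after the start, were searched for 4 of the 9 genes. Any member windows on 1 chromosome were left out of this search, so its counts do not cover all 9. Capitals mark the GTTAAT site of Hnf1 factors, or ATTAAC on the other strand.
Afp (chr5:90490464-90490763, plus strand): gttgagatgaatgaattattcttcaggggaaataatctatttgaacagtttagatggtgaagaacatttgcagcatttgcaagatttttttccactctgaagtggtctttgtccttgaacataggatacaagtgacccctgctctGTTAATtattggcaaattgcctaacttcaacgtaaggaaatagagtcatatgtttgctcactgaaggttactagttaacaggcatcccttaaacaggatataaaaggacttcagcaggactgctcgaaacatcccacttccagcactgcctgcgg
Apoa1 (chr9:46228380-46228679, plus strand): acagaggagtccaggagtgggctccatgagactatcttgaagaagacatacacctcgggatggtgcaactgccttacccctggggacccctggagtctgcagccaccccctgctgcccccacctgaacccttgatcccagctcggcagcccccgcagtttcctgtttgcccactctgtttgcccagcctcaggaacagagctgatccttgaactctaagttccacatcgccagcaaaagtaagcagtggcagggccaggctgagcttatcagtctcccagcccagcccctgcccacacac
The Afp window held this site once, beginning at position -105, and the Apoa1 window did not hold these letters. Of 32851 promoter windows of the same length, 7.10% held it on either strand. Of the 2 windows of Hnf4a, 1 held it in 2 places, at -81 and -74, and the Cer1 window did not. The nuclear receptor site AGGTCA, searched on the other strand too as TGACCT and present in 16.3% of windows, was in 0 of these 5 windows, and the GATA site AGATAA, searched there too as TTATCT and present in 11.2%, was in 1, an Hnf4a window. A match of letters is a description of the sequence and not a binding site.

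Sox17, a high-mobility-group factor of definitive and extraembryonic endoderm, was the member that fell. Its brighter probe set read 84.9, 116 and 214 in RA and 32.1, 30.8 and 93.2 with Ag1.3. Each Ag1.3 culture read lower than its parallel RA culture, as for 19.5% of all genes, but the groups overlapped, because Ag1.3 replicate 3 lay above RA replicate 1. The groups of the other 8 members overlapped too, while 5.35% of all genes read lower and 6.45% read higher with no overlap. Sox17 means were 138 ± 67.3 in RA and 52.0 ± 35.7 with Ag1.3 (SD, n = 3 each). The differences within pairs were -1.07, -1.49 and -1.07 on the log2 scale, which gave a log2 fold change of -1.21 with SE 0.11, a 95% interval of -1.49 to -0.93 and adjusted p = 0.0159 in limma's test with the replicate number as a block. Ordered over all 18193 genes from the most negative log2 fold change, Sox17 stood at place 17.

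The second Sox17 probe set gave the same direction with a smaller change. It read 51.75, 65.9 and 81.3 in RA and 39.5, 45.3 and 43.2 with Ag1.3, and here the groups did not overlap, and 5.67% of all probe sets read lower without overlap. Its log2 fold change was -0.47 with SE 0.11. It did not pass when every probe set was tested on its own (adjusted p = 0.152, unadjusted p = 0.00545), while the brighter probe set passed there with adjusted p = 0.0201, and of all probe sets 0.183% were called lower, 0.730% higher and 0.913% either way. It read lower in all 3 pairs, as did 18.9% of all probe sets. The brighter probe set carries the platform's suffix for probes that can also match other transcripts, and the share of such signal was not tested.

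The fall of Sox17 rested on all 3 pairs together. Without pair 1, 2 or 3 the log2 fold change was -1.28, -1.07 or -1.28 and adjusted p was 0.0669, 0.0517 or 0.0810. Without the replicate block the same log2 fold change of -1.21 had adjusted p = 0.526 and unadjusted p = 0.0209. Sox17 passed in 7 of 12 alternatives, with adjusted p between 1.18e-05 and 0.526.

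**Figure D2:**
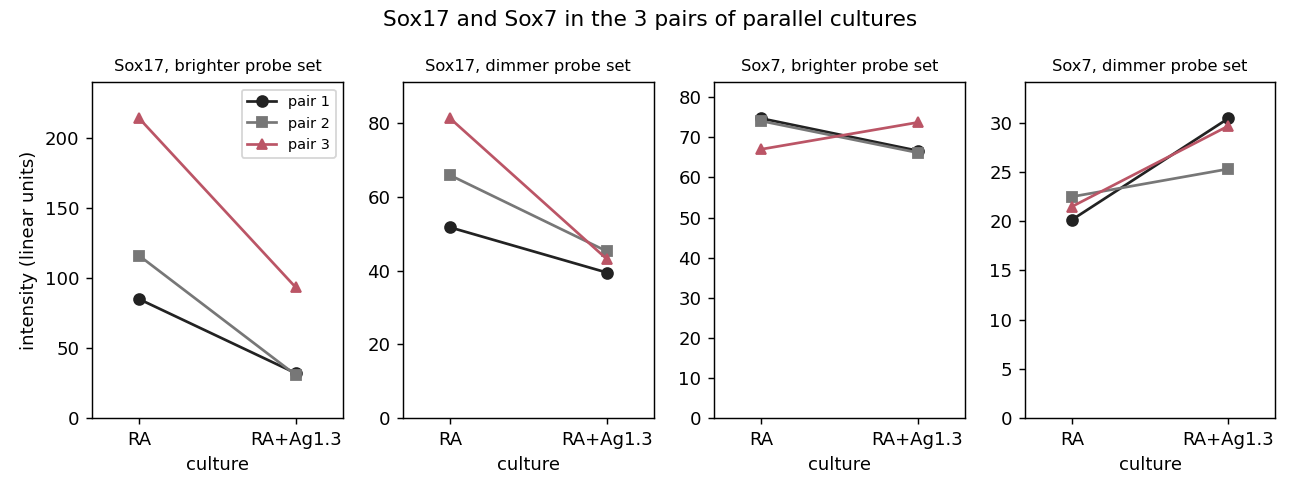
Intensity of both probe sets of Sox17 and of Sox7 in RA and Ag1.3 cultures, with a line for each pair of parallel cultures and each axis starting at 0. All 3 lines fall in both Sox17 panels, whereas the brighter Sox7 probe set falls in 2 pairs and rises in 1, and its dimmer probe set rises in 3.

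Sox7, the relative of Sox17 in the same Sox subgroup, did not pass. Its brighter probe set read 74.7, 74.1 and 67.0 in RA and 66.7, 66.2 and 73.7 with Ag1.3, and the groups overlapped. Its log2 fold change was -0.05 with SE 0.09 and a 95% interval of -0.27 to 0.17. Its dimmer probe set read 20.1, 22.5 and 21.5 in RA, close to the control range, and 30.45, 25.3 and 29.7 with Ag1.3. These groups did not overlap, while 6.10% of all probe sets read higher without overlap, and the value of 0.25 did not pass (adjusted p = 0.317, unadjusted p = 0.0335). The probe sets of Sox7 thus disagreed in sign, and their mean was 0.10.

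Gata4 and Gata6 are zinc finger factors of extraembryonic endoderm and of the heart. Gata4 read 27.6, 48.9 and 38.6 in RA and 35.6, 36.95 and 43.15 with Ag1.3, a log2 fold change of 0.02 (95% interval -0.28 to 0.33) that turned to -0.11 when arrays were scaled to the spikes. Its other probe set read 24.7, 23.6 and 48.4 in RA and 22.4, 26.9 and 26.1 with Ag1.3, a value of -0.19, so RA replicate 3 stood apart in one probe set and not in the other. Neither set the groups apart.

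Gata6 read 23.5, 23.6 and 53.6 in RA and 32.75, 33.8 and 47.1 with Ag1.3. Replicate 3 was the highest of both groups, and the difference with Ag1.3 was above 0 in pairs 1 and 2 and below 0 in pair 3. The log2 fold change was 0.16 with SE 0.12 and adjusted p = 0.597. A second probe set gave 0.15, also highest in both replicates numbered 3, and the third stayed between 1 and 5.90.

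Hnf4a, a nuclear receptor that activates genes of liver and yolk sac, read 40.3, 45.3 and 26.2 in RA and 35.5, 52.7 and 41.6 with Ag1.3. Its log2 fold change of 0.16 had a 95% interval of -0.15 to 0.47 and adjusted p = 0.628. A further probe set gave 0.04, and the other 2 had means within the control range. Cer1, a secreted inhibitor of Nodal, BMP and Wnt ligands made by anterior visceral endoderm, was within the control range on all 6 arrays of its brighter probe set, at 11.1, 9.78 and 13.0 in RA and 7.28, 11.2 and 4.25 with Ag1.3. It had the most negative value after Sox17, -0.22, with an interval of -0.53 to 0.09 and adjusted p = 0.498.

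**Figure D3:**
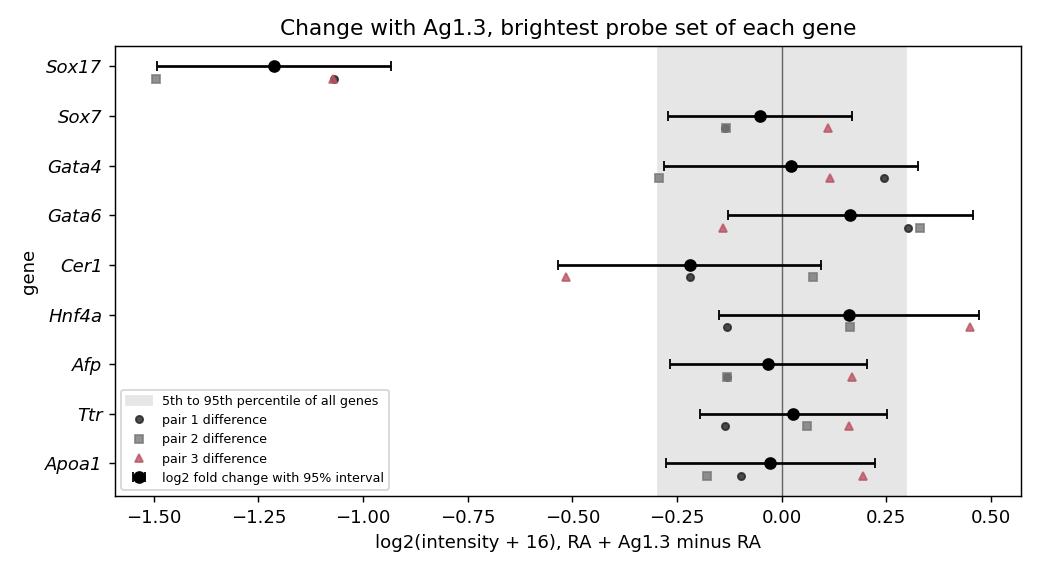
Log2 fold change with Ag1.3 of the chosen probe set of each gene with its 95% interval from limma (black), the difference in each pair below it, and the 5th to 95th percentile of all genes shaded. Sox17 lies at -1.21 with all pairs below -1, and the other 8 intervals include 0.

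Pairs of cultures differed from each other in Sox17 as well. In an F test of the replicate numbers in the same limma fit, Sox17 differed between pairs with adjusted p = 0.0343, the 1 of 9 members that passed, against 2.33% of all genes. Replicate 3 was the highest of both groups. With Gata6 (adjusted p = 0.133), 2 of 9 had an unadjusted p under 0.05, against 20.0% of all genes. The second Sox17 probe set did not pass (adjusted p = 0.413), and there Ag1.3 replicate 3 was not the highest of its group. Without pair 1 or 3, and with a pseudocount of 1, 0 members and 0 of all genes passed this test in limma, and 3, 1 and 2 members had an unadjusted p under 0.05.

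A list of 40 other endoderm genes had 37 measured. With Ag1.3, 2 rose, 1 fell and 34 did not pass, against 1.39% of all genes called either way. An unadjusted p under 0.05 was reached by 14 of the 37, of which 10 read lower and 4 higher, against 14.9% of all genes. The median of -0.03 thus covers values in both directions, from -0.65 to 2.35. Foxa2, a forkhead factor of endoderm that the floor plate of the neural tube also expresses, rose from 49.7, 41.5 and 109 in RA to 398, 231 and 591, a log2 fold change of 2.35. Cxcr4, a chemokine receptor of definitive endoderm and of migrating neurons, rose from 268, 177 and 92.8 to 542, 312 and 195, a value of 0.90. Krt8, a keratin of simple epithelia, fell from 208, 191 and 487 to 114, 125 and 332, a value of -0.62 with adjusted p = 0.0448. Under other settings between 0 and 9 of the 37 fell and between 0 and 4 rose.

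In the test of the replicate numbers 12 of the 37 differed between pairs, against 2.33% of all genes. Replicate 3 was the highest of both groups for 21 of the 37, against 22.0% of all genes, and the lowest for 3. Among the 12 were Cubn, an endocytic receptor of visceral endoderm, which read 11.9, 17.0 and 75.3 in RA and 14.7, 21.7 and 54.85 with Ag1.3. Its log2 fold change with Ag1.3 was -0.01. Dab2, an adaptor of the same endocytic route, read 63.6, 79.7 and 134 in RA and 67.8, 71.15 and 124 with Ag1.3. Lamb1, a laminin chain of the basement membrane, read 251, 344 and 928 in RA and 153, 289 and 792 with Ag1.3. These 3 genes were named after their values were seen, and in each replicate 3 was the highest of both groups. Cxcr4, also among the 12, had replicate 3 as the lowest of both groups. In the list of visceral and primitive endoderm replicate 3 was the highest of both groups for 4 of 9 genes and the lowest for 2, Cited1 and the hedgehog ligand Ihh. Of the 37, 0 passed this test in limma without pair 1 or without pair 3, where 0 of all genes did, and 7 passed when every probe set was tested on its own.

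By kind of endoderm, the genes that changed were all in 1 list. Of 14 genes of definitive and early gut endoderm, the 3 named above changed, 11 did not pass, and 8 had an unadjusted p under 0.05, against 14.9% of all genes. Among these 8, named after their values were seen, the epithelial genes Cldn6 (-0.65, adjusted p = 0.0727), Epcam (-0.59, adjusted p = 0.0989), Krt18 (-0.55, adjusted p = 0.0997) and Cdh1 (-0.43, adjusted p = 0.200) read lower in all 3 pairs and did not pass. Of 9 measured genes of visceral and primitive endoderm 0 passed in limma, with 2 at an unadjusted p under 0.05, Lrp2 at -0.30 and Cited1 at -0.28, the latter within the control range. Of 7 genes of parietal endoderm and basement membrane 0 passed, with 4 at an unadjusted p under 0.05, among them the laminin chain Lama1 at 0.50 and the collagen chain Col4a1 at 0.38. Of 6 measured transport proteins of yolk sac and liver 0 passed and 0 had an unadjusted p under 0.05. Their smallest p values belonged to Rbp4, the carrier of retinol, at 0.15 and Apom at 0.07, and 3 of the 6 were within the control range.

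Lists of other cells that use these factors held no gene past the threshold in limma. Of 13 endothelial genes 3 had an unadjusted p under 0.05, against 14.9% of all genes, with summed intensities of 539 to 625 in RA and 546 to 615 with Ag1.3. Kdr, a receptor for vascular growth factor, read higher in all 3 pairs, at 0.57, as did 17.2% of all genes. Its groups did not overlap, and 6.45% of all genes read higher without overlap. Erg, an endothelial factor, read lower in all 3 pairs, as did 19.5% of all genes. Its groups did not overlap either, and 5.35% of all genes read lower without overlap. Its value was -0.37 and its mean was within the control range, as for 4 of the 13 in all. Of 10 heart and early mesoderm genes 0 passed and 1, Hand2 at 0.60 with groups that did not overlap, had an unadjusted p under 0.05. The RA readings of Hand2 were within the control range, and its value was 0.95 with a pseudocount of 1 and 0.28 with 64. The mean of its probe sets gave 0.26 (unadjusted p = 0.0632 in limma). Tbx5 was next at -0.18. Of 8 yolk sac blood genes 0 passed and 0 had an unadjusted p under 0.05, with Runx1 at 0.23 and Klf1 at -0.24, and 4 of the 8 had means within the control range. Of 8 choroid plexus genes, Ttr included, 0 passed, with Folr1 at -0.37 and Kl at 0.07, and 1 had an unadjusted p under 0.05.

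**Figure D4:**
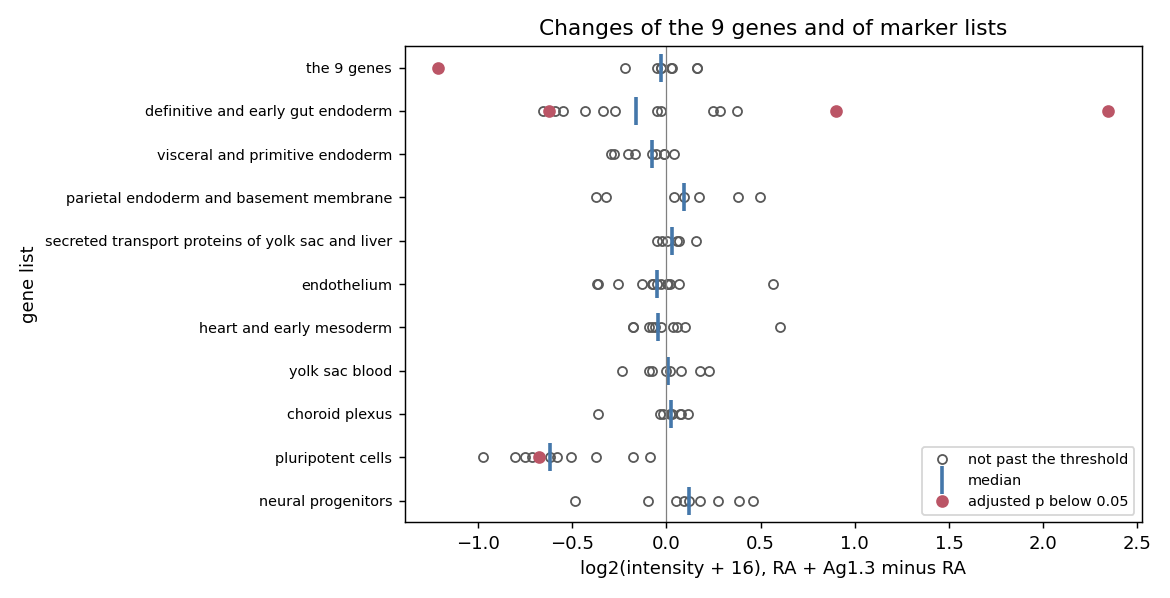
Log2 fold change with Ag1.3 of the 9 genes and of the members of each marker list (1 point per gene, filled where adjusted p was under 0.05, with a bar at the median). The pluripotent list lies furthest to the left, with a median of -0.62 and all 11 members below 0, and Sox17 lies to the left of all of them.

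Genes of pluripotent cells read lower with Ag1.3 and higher in replicate 3, as the brighter Sox17 probe set did. The members of the list of 11 all read lower with Ag1.3, 1 of them past the threshold and 9 at an unadjusted p under 0.05. Of all 18193 genes, 9437 had a value below 0, 0.313% were called lower and 14.9% had an unadjusted p under 0.05 in limma. The summed intensity of the 11 was 6043 to 10076 in RA and 3806 to 7741 with Ag1.3. Pou5f1, which maintains pluripotency, fell from 209, 382 and 453 to 121, 209 and 316. In all 11 replicate 3 was the highest of both groups, against 22.0% of all genes, and 0 of the 11 were within the control range. The part of such cells in the Sox17 result was not tested.

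Neural progenitor genes were read because the cultures are labelled as neuralized. All 9 were above the control range on average, with summed intensities of 9269 to 13763 in RA and 10914 to 13788 with Ag1.3. So were 14573 of 18193 genes and all 11 pluripotent genes, so such a level cannot check the label. Replicate 3 was the lowest of both groups for 7 of the 9, against 17.6% of all genes. For 1, Fabp7, it was the highest of both groups, at 724, 705 and 1037 in RA and 762, 918 and 1710 with Ag1.3. Hes5, a Notch target of progenitors, read 1191, 951 and 283 in RA and 1516, 1435 and 390 with Ag1.3, and Pax6 784, 717 and 345 and 558, 504 and 243. With Ag1.3 none of the 9 passed in limma, though 4 reached an unadjusted p under 0.05, against 14.9% of all genes. Pax6 at -0.48 and Hes5 at 0.46 came nearest. So replicate 3 of both groups read higher for the brighter Sox17 probe set, Gata6, Cubn and the pluripotent genes and lower for most neural ones. Of the 9 members, 3 had replicate 3 as the highest of both groups (Sox17, Gata6 and Ttr), against 22.0% of all genes, and 0 had it as the lowest. Whether these readings belong to 1 difference between the cultures was not tested.

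**Figure D5:**
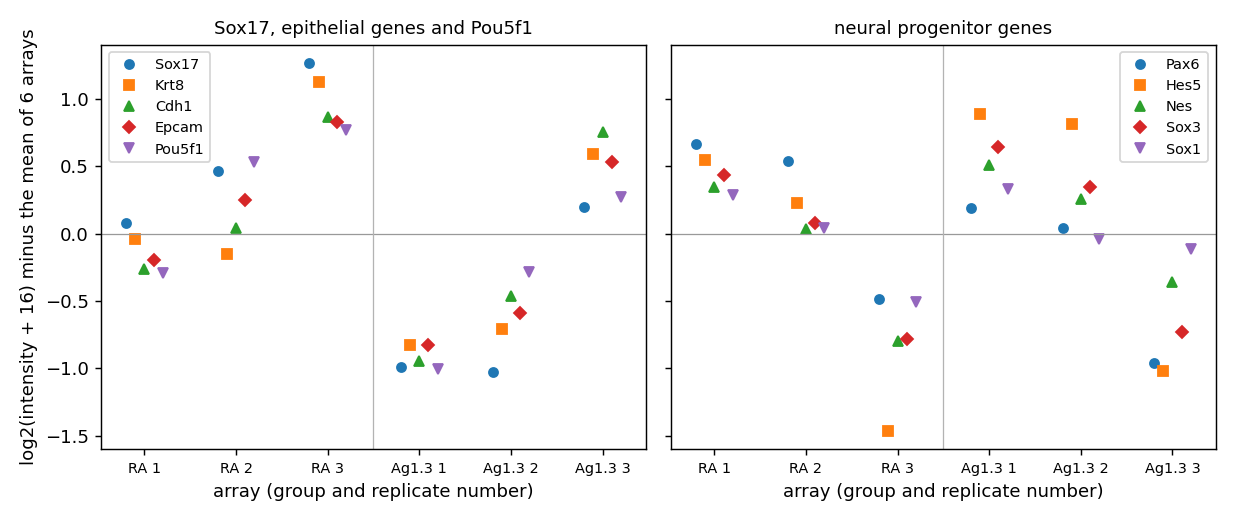
Log2(intensity + 16) on each array minus the gene's mean over the 6 arrays, for Sox17 with Krt8, Cdh1, Epcam and Pou5f1 on the left and for 5 neural progenitor genes on the right, where all but Krt8, Pou5f1, Pax6, Hes5 and Sox17 were chosen after their values were seen. Within each group the array numbered 3 is the highest for the genes on the left and the lowest for those on the right. Fabp7, of the same neural list of 9 and not drawn, has that array as the highest in both groups. Sox2 of that list, also not drawn, has it as the lowest in RA only. The endoderm gene Cxcr4, not drawn either, has it as the lowest in both groups.

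The treatment itself was visible on these arrays. Of 5 hedgehog targets 3 rose, Olig2 by 4.63, Nkx2-2 by 3.22 and Ptch1, the hedgehog receptor, by 1.23. The RA means of Olig2 and Nkx2-2, 16.7 and 11.4, lay within the control range, so the size of their change depends on the pseudocount, from 3.39 to 5.57 for Olig2 and from 2.01 to 4.31 for Nkx2-2. The groups of all 5 did not overlap, and 6.45% of all genes read higher without overlap. Median intensities were 48.7 to 51.9 on RA arrays and 48.8 to 52.55 on Ag1.3 arrays, and hybridization spikes were 0.19 log2 units above the RA arrays on those with Ag1.3.

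The genes most like each member over the 6 arrays were sought among those above the median probe set, as a description. For Sox17 these were Gnptab (Pearson r = 0.998), Agtrap (0.997) and Cfdp1 (0.995). Agtrap read 93.2, 104 and 126 in RA and 64.65, 64.8 and 92.05 with Ag1.3, with a change of -0.47 (adjusted p = 0.0681 in limma). Gnptab and Cfdp1 ranked the 6 arrays in the same order as Sox17, with changes of -0.15 and -0.11, and Agtrap did not. Gata6 was nearest to Lin28a (0.983), an RNA-binding protein of stem cells, which read 403, 410 and 709 in RA and 496, 494 and 577 with Ag1.3. It was followed by Atp6v0b (0.977) and Klhl8 (0.976). The nearest genes were Prkaca, Fam193a and Klf15 for Sox7 (0.978 to 0.984), Haus8, 4930594C11Rik and Ppp1r1c for Gata4 (0.981 to 0.987), Iba57, Odr4 and Prr11 for Hnf4a (0.981 to 0.992), and Ptprm, Scaper and Tmed9 for Ttr (0.980 to 0.998). These are the highest of 11440 or 11441 coefficients per member over 6 arrays, and arrays of the same number come from cultures grown in parallel.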

How the data were processed

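The deposited table held 1 intensity per probe set and array on a linear scale. How the authors summarised and scaled these intensities is not given in the sources used here, and no genome build was named for them. The labels' protocols name 3' IVT Express labelling of total RNA. Of 45101 rows, 64 control probe sets were left out, 34945 had 1 gene symbol in the platform annotation, 932 had several and 9160 were not listed. All 9 symbols matched RefSeq (GRCm38.p6). For each gene the probe set whose log2 values had the highest mean over the 6 arrays was used. Values were log2(intensity + 16), which understates changes of dim genes. The test was limma 3.58.1 (R 4.3.3), with treatment and the replicate number as a block, two-sided, Benjamini-Hochberg over 18193 genes, threshold 0.05, after a check on simulated data. The series' design text gives the pairing, and deviations from group means correlated at 0.54, 0.19 and 0.56 for arrays of the same number. p-values measure variation between 3 pairs of cultures of 1 line; 6 arrays limit the precision. Named genes were all 9 members, those past the threshold in the list of other endoderm genes, and from each of 11 marker lists up to 3 past it or else the 2 with the smallest p; the 3 most correlated genes were named for members above the controls, and other names were chosen after their values were seen. The members and lists were chosen with earlier results of these data known. Alternatives were the block, pseudocounts of 1 and 64, quantile and spike scaling, a filter on dim genes, the handling of probe sets, the variance prior and each pair left out.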

Additional observations from a re-analysis of the deposited data

How the results depend on the processing

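In the results below all tests are limma's. None of the alternatives that tested them brought any of the other 8 members past the threshold: 12 for Sox7 and 11 for the other 7, since the filter on dim genes tested 2 members, Sox17 and Sox7. For Sox17 the log2 fold change without the replicate block was -1.21 (adjusted p = 0.526), with a pseudocount of 1 it was -1.48 (adjusted p = 0.144), and with a pair left out it ran from -1.28 to -1.07. In these 3 kinds of setting 0 members fell past the threshold, and 1 to 2 members had an unadjusted p under 0.05.

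Members differing between pairs numbered 0 with a pseudocount of 1 and when probe sets were averaged (2 at an unadjusted p under 0.05 in each), and 0 to 1 with a pair left out. Signs turned in 12 of 101 member values, none of them past the threshold. With the mean of probe sets Sox7 gave 0.10, Gata4 -0.086 and Apoa1 0.0069. Scaled to the spikes Gata4 gave -0.11 and Ttr -0.084, and among other genes Rbp4 -0.011, Apom -0.033 and Kl -0.027. Gata4 (-0.089 to 0.18), Afp (-0.13 to 0.018), Ttr (-0.038 to 0.11), Apoa1 (-0.14 to 0.049), Apom (-0.026 to 0.17) and Kl (-0.0018 to 0.12) turned with a pair left out.

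Other endoderm genes that fell numbered 0 without the block, with a pseudocount of 1, when probe sets were averaged, with every probe set on its own and with any pair left out (2 to 11 at an unadjusted p under 0.05). They were 4 with a pseudocount of 64, 9 with spike scaling, 4 among genes above the median probe set and 6 with a variance prior that follows intensity. Those that rose were 0 without the block and with a pseudocount of 1 (2 and 4 at an unadjusted p under 0.05), 4 with the filter, 4 with that prior and 1 with a pair left out. Markers of other cells that fell numbered 0 without the block, with a pseudocount of 1, with every probe set and with a pair left out (1 to 14 at an unadjusted p under 0.05), 11 with a pseudocount of 64, 2 after quantile normalization, 13 with spike scaling, 11 with the filter and 11 with that prior. Those that rose were 0 with a pseudocount of 1 (9 at an unadjusted p under 0.05), 6 with 64, 6 with spike scaling, 7 with the filter, 6 with that prior and 1 to 2 with a pair left out. These counts of markers include the 5 hedgehog targets, and the 3 that rose in the main fit were Olig2, Nkx2-2 and Ptch1.

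Over all genes, 8 fell and 78 rose without the block, 0 and 0 with a pseudocount of 1 (2411 at an unadjusted p under 0.05), 358 and 473 with 64, 453 and 497 with the filter, 376 and 515 with that prior, and 2 to 19 and 33 to 43 with a pair left out, while 1399 fell with spike scaling. Signal near the control range limits what can be said of Cer1, Afp, Ttr and Apoa1. The causes of these shifts were not tested.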
